A study of Mus musculus with 8 samples.

Results

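The genes described here make and sense leukotrienes and related lipid mediators: Alox5, Alox5ap, Alox12, Alox15, Ltc4s, Lta4h, Ltb4r1, Cysltr1, Pla2g4a and Pla2g7. They were taken as a named list of 10 genes, of 20886 named genes on the array, through every gene probe whose transcript belongs to 1 of them, which gave 13 probes. Macrophages had been isolated from male mice after an LPS challenge, LPS being a bacterial endotoxin that activates macrophages, and their total RNA was labelled with Cy3 and hybridised to 8 1-colour Agilent arrays. 4 arrays held RNA of wild-type mice (WT 1 to 4) and 4 held RNA of mice lacking EP2 (EP2KO 1 to 4), a prostaglandin E2 receptor encoded by Ptger2. Both genotypes had received LPS, so no array measures an untreated state. The LPS dose and time, the age and strain of the mice, the site from which the macrophages came and the cells in which EP2 was deleted are left unstated by the sources used here. Separate mice per replicate are not stated in the labels, and a p-value here therefore covers the spread among these arrays, which may be technical.

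Leukotriene synthesis starts when cytosolic phospholipase A2 releases arachidonic acid from membrane phospholipids. 5-lipoxygenase, helped by its activating protein, turns that acid into leukotriene A4, which leukotriene A4 hydrolase converts to leukotriene B4 and leukotriene C4 synthase to the cysteinyl leukotriene C4. Leukotriene B4 attracts leukocytes through its receptor BLT1, and cysteinyl leukotrienes act through CysLT1 and a related receptor. 12/15-lipoxygenase oxidises the same acid at other carbons and is a known product of resident peritoneal macrophages. Prostaglandin E2, the ligand of EP2, is made from the same arachidonic acid by cyclooxygenases.

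The start regions of 4 of these genes are shown because, among genes with a window, their arrays separated most plainly: Alox5, Ltc4s and Ltb4r1 between the slides of arrays, and Pla2g7 between the genotypes. Each window runs from 250 bases before to 50 after the annotated start on the gene's own strand, from RefSeq, build GRCm38.p6. Windows were held for 7 of the 10 genes; Alox15, Alox5ap and Cysltr1 have no entry. The capitals mark GGGCGG, a core of the motif read by Sp factors, and GAGGAA, a core read by the myeloid factor PU.1, on either strand (CCGCCC and TTCCTC on the opposite strand). The Alox5 window is chr6:116461129-116461428 (minus strand), Ltc4s is chr11:50238483-50238782 (minus strand), Ltb4r1 is chr14:55765712-55766011 (plus strand) and Pla2g7 is chr17:43568201-43568500 (plus strand).
Alox5: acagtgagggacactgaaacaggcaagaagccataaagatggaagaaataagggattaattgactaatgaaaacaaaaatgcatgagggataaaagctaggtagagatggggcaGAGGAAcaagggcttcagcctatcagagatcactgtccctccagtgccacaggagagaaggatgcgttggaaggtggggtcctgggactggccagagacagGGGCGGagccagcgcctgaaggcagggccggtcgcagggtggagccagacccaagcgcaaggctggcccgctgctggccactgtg
Ltc4s: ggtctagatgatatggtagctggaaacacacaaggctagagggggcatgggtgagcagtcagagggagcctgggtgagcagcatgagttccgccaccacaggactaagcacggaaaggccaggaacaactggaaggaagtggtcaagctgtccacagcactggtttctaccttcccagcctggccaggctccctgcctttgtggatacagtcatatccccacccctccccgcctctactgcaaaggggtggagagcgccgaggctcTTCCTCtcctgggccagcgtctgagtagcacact
Ltb4r1: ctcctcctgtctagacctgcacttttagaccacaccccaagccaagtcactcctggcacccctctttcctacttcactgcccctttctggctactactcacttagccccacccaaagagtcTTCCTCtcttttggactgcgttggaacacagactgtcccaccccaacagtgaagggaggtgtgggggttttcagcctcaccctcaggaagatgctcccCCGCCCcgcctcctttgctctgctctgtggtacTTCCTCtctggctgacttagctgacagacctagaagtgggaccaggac
Pla2g7: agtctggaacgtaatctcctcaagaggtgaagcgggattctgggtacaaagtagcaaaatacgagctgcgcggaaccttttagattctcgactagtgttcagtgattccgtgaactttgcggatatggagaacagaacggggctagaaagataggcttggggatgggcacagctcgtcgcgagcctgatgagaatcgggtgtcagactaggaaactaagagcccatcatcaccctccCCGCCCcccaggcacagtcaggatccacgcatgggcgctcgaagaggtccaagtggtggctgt
The Alox5 window held 1 match of each motif, the Ltc4s window 1 GAGGAA, the Ltb4r1 window 1 GGGCGG and 2 GAGGAA, and the Pla2g7 window 1 GGGCGG. Of 32851 windows of this length in the table, 35.7% held GGGCGG and 28.3% held GAGGAA. The half-site TGACG, read by cyclic AMP-responsive factors on either strand, was in 20.8% of all windows and in none of these 4. A match describes these letters only, and the motifs do not overlap one another here.

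Signals are given relative to the array's 75th percentile, so a relative signal of 1 means that percentile. The arrays lay on 2 slides: slide 1 held WT 1, WT 2, EP2KO 1 and EP2KO 2, and slide 2 held the other arrays. Slide and scan day coincide, and WT and EP2KO arrays kept separate positions on each slide, which leaves position and genotype inseparable: they cannot be told apart. Slides parted along the first principal component, with 61.0% of the variance. Between 25566 and 32161 of 39429 gene probes were well above background per array, and precision is limited by how few arrays there were. The labels call the mice male. Both Xist probes were well above background on 8 of 8 arrays, and 5 probes of 4 Y-linked genes were well above background on 0 to 1 arrays, which goes against that label on every array. Of 10 general macrophage markers, 9 were named on the array and all 9 were well above background on 8 of 8 arrays, while Cd68 had no named probe. Ptger2, the deleted gene, had relative signals of 0.972, 1.12, 0.899 and 1.00 in WT 1 to 4 and 0.357, 0.287, 0.323 and 0.224 in EP2KO 1 to 4. The genotypes did not overlap: the EP2KO minus WT difference was -1.76 on the log2 scale (SE 0.17, 4 arrays per genotype), 3.39-fold lower. Its limma adjusted p was 0.0616 without a block, 0.0328 with a slide block and 0.217 with a replicate block. With the slide as a block and any 1 array left out it did not pass (adjusted p 0.0718 to 0.201). No source used here says whether this probe falls inside the deletion.

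Of the 9 list genes that could be tested, 0 passed an adjusted p of 0.05 (limma with Benjamini-Hochberg adjustment over 20738 features) for EP2KO against WT, with no block, with the slide as a block or with the replicate number as a block. Over all features the shares that passed were 0.00964%, 0.0193% and 0% in the same 3 fits. At an unadjusted p under 0.05, 1 list gene stood in the fit without a block (1.98% of all features) and 2 in the slide-blocked fit, Alox15 and Pla2g7 (7.34% of all features). The median log2 difference over the 9 genes was -0.18, against -0.03 over all features, with 3 genes above 0 and 6 below. In bulk RNA, fewer cells of a type and less RNA per cell cannot be told apart. The 11 tested probes were well above background on all 8 arrays, and the 2 Alox12 probes were left out by the filter.

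**Figure D1:**
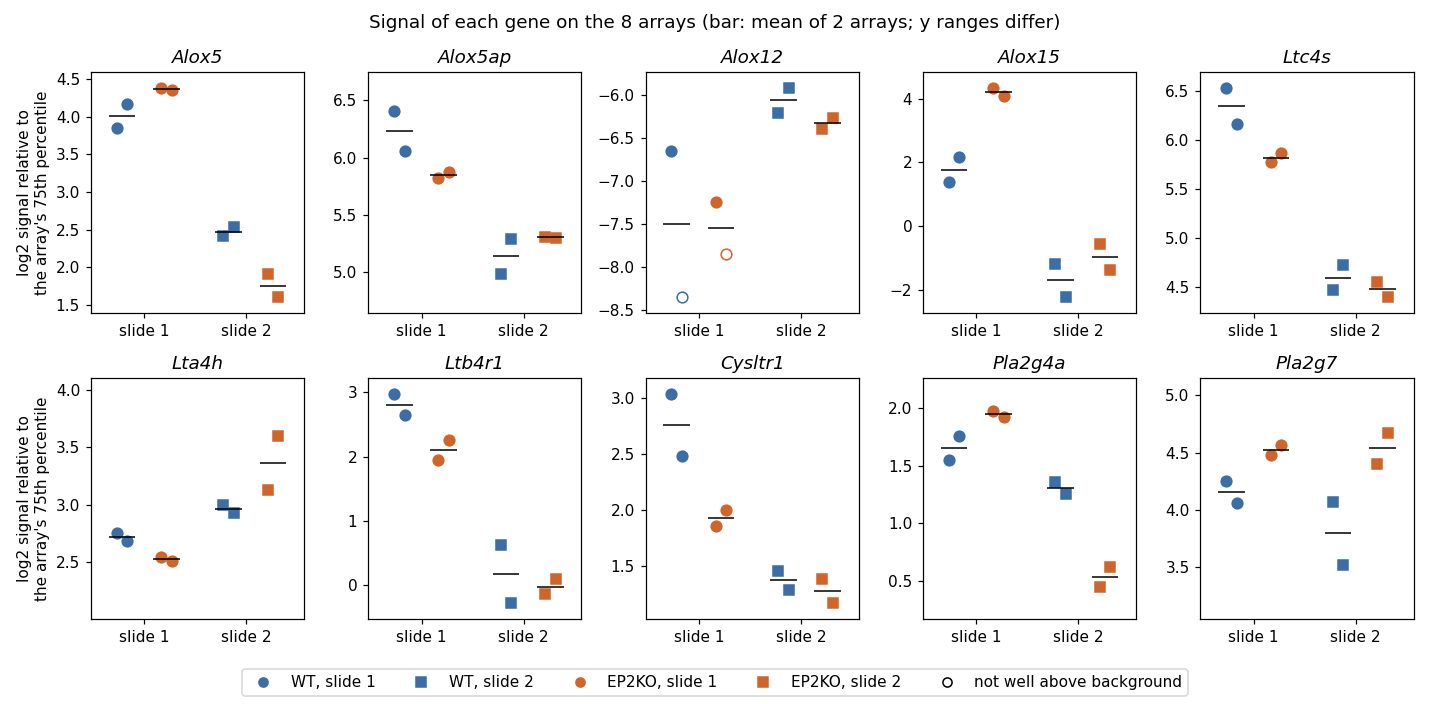
Log2 signal of each list gene relative to the array's 75th percentile, 1 panel per gene with its own y range, WT in blue and EP2KO in orange on slide 1 (circles) and slide 2 (squares); bars are means of 2 arrays and open symbols were not well above background. Pla2g7 is the gene whose 4 EP2KO arrays all lie above its 4 WT arrays, and Alox5, Alox15 and Ltb4r1 lie more than 4-fold lower on slide 2.

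The phospholipases A2 come first in the pathway. Pla2g4a, the cytosolic enzyme that releases arachidonic acid, had relative signals of 3.39, 2.93, 2.39 and 2.57 in WT 1 to 4 and 3.81, 3.95, 1.54 and 1.36 in EP2KO 1 to 4. The EP2KO arrays were the higher pair on slide 1 and the lower pair on slide 2. Its log2 difference, EP2KO minus WT, was accordingly 0.30 on slide 1, -0.77 on slide 2 and -0.24 over all arrays (SE 0.39 without and 0.22 with the slide as a block).

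Pla2g7 encodes the secreted enzyme that hydrolyses platelet-activating factor and oxidised phospholipids. On its brighter probe the relative signals were 16.7, 19.0, 11.5 and 16.8 in WT 1 to 4 and 23.7, 22.3, 25.5 and 21.2 in EP2KO 1 to 4. Every EP2KO array lay above every WT array, which made Pla2g7 the 1 list gene of 9 whose genotypes did not overlap over all arrays. Of all features with values on every array 1.39% did not overlap, 0.435% with EP2KO higher and 0.951% with EP2KO lower. The log2 difference was 0.56 (SE 0.18, and 0.16 with the slide as a block), 1.47-fold higher, and was positive on slide 1 (0.37) and on slide 2 (0.74). The limma adjusted p was 1 without a block, 0.424 with the slide and 0.821 with the replicate number, so the difference did not pass. The second probe gave 2.90, 2.37, 1.64 and 2.28 in WT and 3.44, 3.74, 3.62 and 3.81 in EP2KO. It showed the same separation, with a log2 difference of 0.70, 0.45 on slide 1 and 0.94 on slide 2. Taken as a feature of its own among 25174 kept probes, that probe had a slide-blocked adjusted p of 0.280 (limma); this fit was chosen after the values were seen. The probes share a gene and are not replicates of each other.

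**Figure D2:**
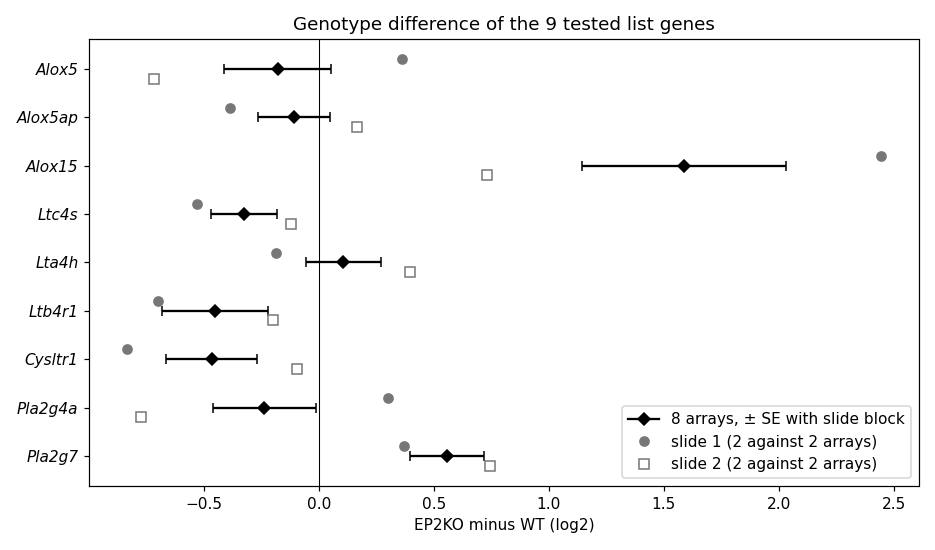
EP2KO minus WT difference (log2 scale) of the 9 tested genes: diamonds give the value over 8 arrays with bars of 1 SE from the slide-blocked fit, circles the value on slide 1 and squares that on slide 2. Alox15 and Pla2g7 lie above 0 on both slides, and Alox5, Alox5ap, Lta4h and Pla2g4a change sign between the slides.

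Among the lipoxygenases, Alox5, which encodes the enzyme that begins leukotriene synthesis, had relative signals of 17.9, 14.4, 5.79 and 5.32 in WT 1 to 4 and 20.5, 20.8, 3.05 and 3.74 in EP2KO 1 to 4. EP2KO was higher on slide 1, by 0.36 on the log2 scale, and lower on slide 2, by -0.72, and the genotypes did not overlap on either. The difference over all arrays was -0.18 (SE 0.78, and 0.23 with the slide as a block).

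Alox5ap encodes the membrane protein that presents arachidonic acid to 5-lipoxygenase. Its relative signals were 66.7, 84.6, 39.1 and 31.8 in WT 1 to 4 and 58.5, 56.5, 39.5 and 39.7 in EP2KO 1 to 4. The signs were the reverse of those of Alox5, with a log2 difference of -0.39 on slide 1 and 0.17 on slide 2. Over all arrays it was -0.11 (SE 0.34, and 0.16 with the slide as a block).

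Alox15, the gene of 12/15-lipoxygenase, had the widest range of the tested list genes. Its relative signals were 4.49, 2.58, 0.214 and 0.436 in WT 1 to 4 and 17.1, 20.1, 0.380 and 0.678 in EP2KO 1 to 4. On slide 1 both EP2KO arrays lay above both WT arrays, while on slide 2 EP2KO 3 lay below WT 4. The log2 difference was 2.44 on slide 1 (5.44-fold higher), 0.73 on slide 2 (1.66-fold higher) and 1.59 over all arrays (SE 1.61, and 0.44 with the slide as a block). The limma adjusted p was 1 without a block, 0.402 with the slide and 0.675 with the replicate number, so Alox15 did not pass in any of these fits.

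Alox12, the platelet-type 12-lipoxygenase, had 2 probes, and 1 of them was well above background on 0 of 8 arrays. The other was well above background on 6 of 8 arrays, the exceptions being WT 1 and EP2KO 1. On that probe the relative signals were 0.00307, 0.00993, 0.0165 and 0.0135 in WT 1 to 4 and 0.00433, 0.00662, 0.0130 and 0.0119 in EP2KO 1 to 4. The genotypes overlapped, and the probe was left out of the fits by the filter on dim probes. In the alternative without that filter, which included Alox12, 0 list genes passed (limma, adjusted p 0.05). Alox12, Alox12e and Alox15 are consecutive coding genes on chromosome 11 in the GRCm38.p6 gene order.

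The 2 enzymes that part leukotriene A4 into its classes gave small differences. Ltc4s, leukotriene C4 synthase, had relative signals of 71.8, 92.4, 26.3 and 22.1 in WT 1 to 4 and 58.2, 54.7, 21.0 and 23.4 in EP2KO 1 to 4. WT was higher on slide 1 and the genotypes overlapped on slide 2. The log2 difference was -0.32 (SE 0.58, and 0.14 with the slide as a block), -0.53 on slide 1 and -0.12 on slide 2, with a slide-blocked adjusted p of 0.695 (limma).

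Lta4h, leukotriene A4 hydrolase, had relative signals of 6.41, 6.73, 7.60 and 7.99 in WT 1 to 4 and 5.70, 5.84, 12.1 and 8.73 in EP2KO 1 to 4. EP2KO was lower on slide 1, by -0.19 on the log2 scale, and higher on slide 2, by 0.40, where EP2KO 3 was the highest array. The difference over all arrays was 0.11 (SE 0.26, and 0.16 with the slide as a block).

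The receptors were both lower in EP2KO on slide 1. Ltb4r1, which encodes the leukotriene B4 receptor BLT1, had relative signals of 6.27, 7.84, 0.824 and 1.55 in WT 1 to 4 and 4.80, 3.87, 1.07 and 0.906 in EP2KO 1 to 4. Its log2 difference was -0.70 on slide 1, -0.20 on slide 2, where the genotypes overlapped, and -0.45 over all arrays (SE 0.88, and 0.23 with the slide as a block). Ltb4r1 lies on chromosome 14, as does the deleted Ptger2, with 184 coding genes between them.

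Cysltr1, the gene of the cysteinyl leukotriene receptor CysLT1, had relative signals of 5.59, 8.18, 2.43 and 2.74 in WT 1 to 4 and 3.98, 3.61, 2.24 and 2.60 in EP2KO 1 to 4 on its brighter probe. The dimmer probe gave 1.73, 2.67, 0.798 and 0.894 in WT and 1.41, 1.31, 0.696 and 0.791 in EP2KO. On slide 1 both probes were lower in EP2KO with no overlap. On slide 2 the genotypes overlapped on the brighter probe, while both EP2KO arrays lay just below both WT arrays on the dimmer one. The log2 difference was -0.47 on the brighter probe (SE 0.42, and 0.20 with the slide as a block; -0.83 on slide 1 and -0.10 on slide 2) and -0.42 on the dimmer one (-0.66 on slide 1 and -0.19 on slide 2). The value of the brighter probe ran from -0.14 without WT 2 to -0.73 without WT 3. The slide-blocked adjusted p of the brighter probe was 0.684 (limma).

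Within slide 1 the genotypes did not overlap for 9 of the 9 tested genes, where 49.5% of all features did not overlap, and within slide 2 for 5 of the 9, against 50.8%. With 2 arrays of each genotype per slide such a separation is common, as these shares show. By the brightest probe of each gene, EP2KO was the higher pair on both slides for Pla2g7 alone, as for 2.91% of all features. It was the lower pair on both for 0 list genes, against 4.1% of all features. On the dimmer Cysltr1 probe, which these counts leave out, EP2KO was the lower pair on both slides. The signs on the 2 slides were opposite for 4 genes: Alox5, Alox5ap, Lta4h and Pla2g4a. The other 5 list genes kept their sign, as did 7527 of 20738 features, so opposite signs were common over all features. The change of the genotype difference between slides was tested as an interaction term. It was -1.08 for Alox5 (SE 0.24, limma adjusted p 0.119), -1.07 for Pla2g4a (SE 0.20, adjusted p 0.112) and -1.71 for Alox15 (SE 0.64, adjusted p 0.207), on the log2 scale. At an adjusted p of 0.05, 0 of 9 list genes and 0.0145% of all features passed. At an unadjusted p under 0.05, 4 of 9 list genes stood, the above 3 and Cysltr1, beside 21.1% of all features. Without WT 1, Alox5 (limma adjusted p 0.0471) and Pla2g4a (adjusted p 0.0407) passed.

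For 8 of the 9 tested genes the slide difference was larger in size than the genotype difference, the exception being Pla2g7. The share of all features for which this holds was not counted. Over all features 43.2% passed between slides and 0.00964% by genotype without a block. Those shares measure passing and not size, so they cannot show whether this count is particular to the list. Of the 9 tested genes, 7 fell and 1 rose from slide 1 to slide 2 at an adjusted p of 0.05 (limma, genotype in the model), where 43.2% of all features passed, 18.2% lower and 25.1% higher on slide 2. The slides did not overlap for the same 8 genes, against 43.1% of all features, 18% lower and 25.1% higher on slide 2. The median log2 difference, slide 2 minus slide 1, was -1.02 over the 9 genes and 0.06 over all features. The sources used here do not say what set the slides apart besides the scan, and slide and any difference between the samples placed on it cannot be told apart.

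Alox15 fell by 4.33 on the log2 scale (SE 0.44, 8 arrays, limma adjusted p 0.000448), 20.2-fold, and only 24 of 20738 features (0.116%) had a lower difference. Ltb4r1 fell by 2.38 (SE 0.23, limma adjusted p 0.000373), 5.22-fold, and Alox5 fell by 2.07 (SE 0.23, limma adjusted p 0.000653), 4.21-fold. These 3 were more than 4-fold lower on slide 2, as were 3.45% of all features. The other genes that fell did so by less. Ltc4s fell by 1.55 (SE 0.14, limma adjusted p 0.000314) and Cysltr1 by 1.02 (SE 0.20, adjusted p 0.00621). Pla2g4a was lower by 1.84-fold (log2 difference -0.88, SE 0.22, limma adjusted p 0.0175) and Alox5ap by 1.76-fold (-0.82, SE 0.16, adjusted p 0.00583). Pla2g4a did not pass without EP2KO 1, EP2KO 2 or EP2KO 3 (adjusted p 0.0569, 0.0506 and 0.0553). Lta4h moved the other way, 1.45-fold higher on slide 2 (log2 difference 0.54, SE 0.16, limma adjusted p 0.0330). That call was lost under another background correction (adjusted p 0.184), without the filter on dim probes (adjusted p 0.0651) and without WT 1, WT 4 or any single EP2KO array (adjusted p 0.0536 to 0.0991). Pla2g7 was the tested gene that did not pass between slides, with a log2 difference of -0.17 (SE 0.16, limma adjusted p 0.419). The sequences printed above therefore belong to 3 genes that fell between slides and 1 that did not pass.

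**Figure D3:**
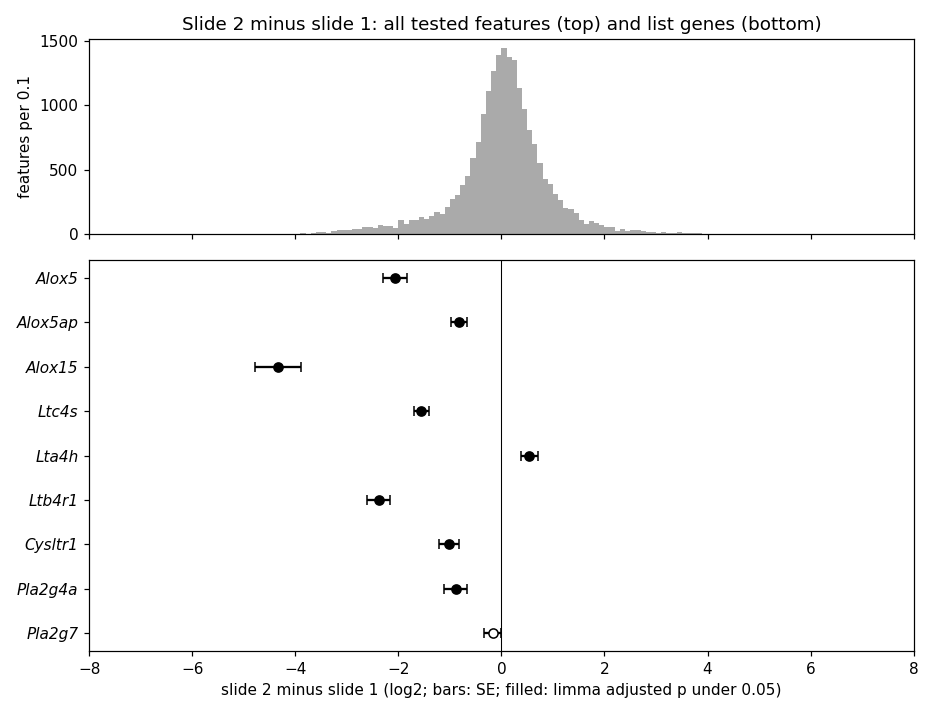
Slide 2 minus slide 1 difference (log2 scale): the distribution over all tested features above, and below it each of the 9 tested genes with bars of 1 SE and filled points where the limma adjusted p was under 0.05. Alox15 lies lowest at -4.33, 7 filled points lie below 0 and Lta4h above, and Pla2g7 is the open point.

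Markers of several cell types moved with the slide, with the genotype or with both, and their part in the results above was not tested. All 11 markers of large peritoneal macrophages, the resident cells known for Alox15, were well above background on all arrays. Their summed relative signal was 128.6 to 162.1 in WT and 200.1 to 201.5 in EP2KO on slide 1, and 76.3 to 84.3 in WT and 113.7 to 129.7 in EP2KO on slide 2. The summed signal was thus higher in EP2KO on each slide and higher on slide 1 within each genotype. A sum gives most weight to bright probes, and single markers departed from it: on slide 2 Gata6 (log2 difference -1.29), the factor that defines these cells, Garnl3 (-0.79) and F5 (-0.45) were lower in EP2KO with no overlap, and Cd93 was higher on slide 2 than on slide 1 (1.86). The median log2 difference over these markers was 0.98 between genotypes and -2.35 between slides. Between genotypes 10 of 11 lay above 0, beside 8999 of 20738 features. Only 7 of 11 kept 1 sign on both slides, beside 7527 of 20738 features.

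Mast cell markers, of which 8 of 10 were tested, summed to 11.9 to 19.3 in WT and 31.3 to 33.4 in EP2KO on slide 1, and to 2.89 to 3.56 and 8.27 to 13.2 on slide 2. Mast cells are a known source of cysteinyl leukotrienes. A genotype difference above 0 was found for 7 of 8 tested markers, beside 8999 of 20738 features, with 11739 features below 0. Ltc4s and Cysltr1 had one below 0. Between slides Ltc4s and Cysltr1 fell, as did 7 of the 8 markers (limma, adjusted p 0.05). A link between these markers and the list genes was not tested. Tpsab1 had no named probe, and Ms4a2 was well above background on 3 arrays. Eosinophil markers, 5 of 6 tested, summed to 5.10 to 11.1 on slide 1 and 1.08 to 3.75 on slide 2 over both genotypes, with Epx well above background on 0 of 8 arrays. Neutrophil markers, 8 of 10 tested, summed to 37.8 to 54.6 in WT and 19.7 to 54.4 in EP2KO on slide 1, and to 8.26 to 10.03 in WT and 4.75 to 5.55 in EP2KO on slide 2. The drop of the sum between slides had the direction of Alox5 and Ltb4r1, genes that neutrophils also use, and a link was not tested. Single markers departed from the sum: 4 of 8 passed as lower on slide 2. Elane passed as higher (log2 difference 1.36, limma adjusted p 0.00108). On slide 2 the EP2KO sums lay below the WT sums. The median genotype difference was -0.05 over the eosinophil and -0.04 over the neutrophil markers on the log2 scale, with neutrophil markers on both sides of 0, such as S100a9 at -1.60, Cxcr2 at -1.25 and Ltf at 0.91. General macrophage markers, 9 of 10 tested, summed to 301 to 356 in WT and 269 to 283 in EP2KO on slide 1. On slide 2 they summed to 226 to 264 in WT and 286 to 331 in EP2KO. The sums thus lay apart by genotype on each slide, in opposite directions, while the ranges of the 2 slides overlapped. Of the 9 markers, 3 passed as lower on slide 2, such as Cd14 (log2 difference -1.24). Another 2 passed as higher, Mrc1 (1.41) and Fcgr1 (0.97).

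The remaining lists are given as sums over both genotypes, and by genotype where these lay apart on slide 2. Platelet markers, 6 of 7 tested, summed to 47.0 to 74.3 on slide 1 and 50.2 to 71.8 on slide 2. The sum rests mostly on Pf4 (mean log2 signal 5.74 in WT and 6.01 in EP2KO). Of the 6, Treml1 passed as higher on slide 2 (log2 difference 3.13, limma adjusted p 0.000383). Gp1ba, well above background on 6 of 8 arrays, passed as lower (-1.56, adjusted p 0.00339). B cell markers, 8 of 8 tested, summed to 58.1 to 95.3 on slide 1, and on slide 2 to 12.6 to 15.9 in WT and 5.62 to 8.77 in EP2KO. Of these, 7 of 8 had a genotype difference below 0, and Jchain (log2 difference -3.88) did not overlap between genotypes. T and NK cell markers, 8 of 8 tested, summed to 9.40 to 12.7 in WT and 4.39 to 4.55 in EP2KO on slide 1. On slide 2 they summed to 2.10 to 2.20 in WT and 1.07 to 1.38 in EP2KO. In EP2KO 8 of 8 were lower (median log2 difference -1.12). Bcl11b, well above background on 6 of 8 arrays, entered the fit only through WT, the higher genotype. Over all features 11739 of 20738 had a genotype difference below 0, the share to set beside these counts. B, T and NK cell markers therefore ran in the direction of the list genes between slides. Fibroblast and mesothelium markers, 10 of 10 tested, summed to 18.8 to 88.3 on slide 1, to 114.7 to 131.2 in WT on slide 2 and to 3.98 to 25.0 in EP2KO on slide 2. Over all arrays 10 of 10 had a genotype difference below 0, but 0 of 10 kept 1 sign on both slides. Their median log2 difference, EP2KO minus WT, was 1.01 on slide 1 and -3.67 on slide 2. Epithelium markers, 6 of 6 tested, summed to 0.334 to 3.01 on slide 1, and on slide 2 to 0.633 to 0.777 in WT and 0.413 to 0.499 in EP2KO.

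**Figure D4:**
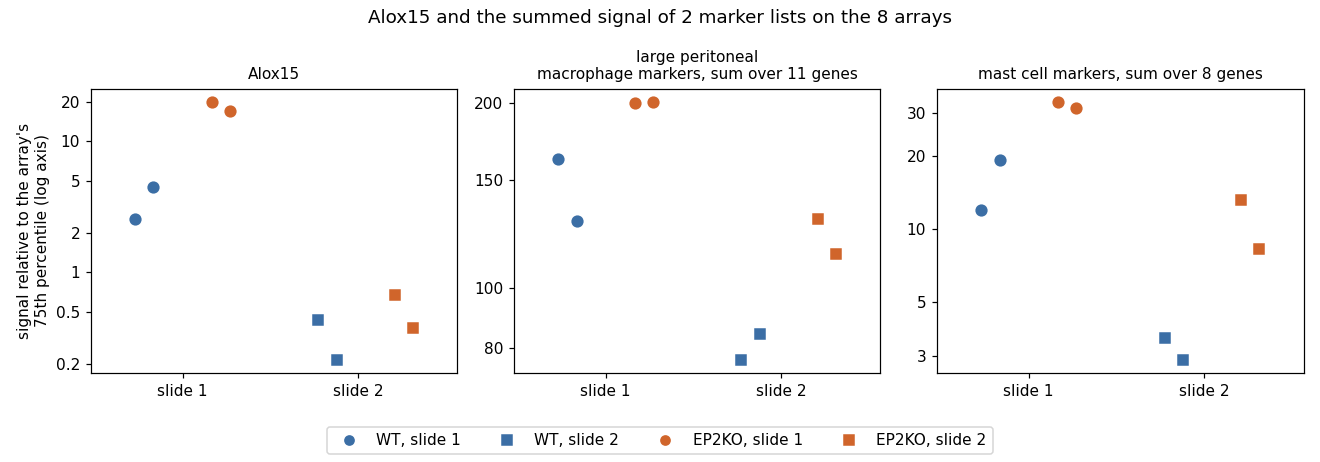
Alox15 (left) and the summed signal of 11 large peritoneal macrophage markers and 8 mast cell markers on the 8 arrays, all relative to the array's 75th percentile on log axes. Both sums lie higher in EP2KO than in WT on each slide and lower on slide 2; Alox15 overlaps between genotypes on slide 2.

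Slide-centred log2 values, which remove each slide's mean, were used to name the genes most alike in pattern to the 3 list genes with the largest remaining SD. For Alox15 (SD 1.13) these were Glb1 (Pearson r 0.969), Epas1 (0.969) and Ribc1 (0.963), over 8 arrays. For Ltb4r1 (SD 0.42) they were Eef2kmt (r 0.979), Gpr15 (0.973) and Map3k14 (0.968). For Cysltr1 (SD 0.39) they were Cul1 (r 0.988), Ccr2 (0.985), the receptor of monocyte chemoattractants, and Tmem266 (0.982). The arrays share slides and labelling, these are the extremes over all named genes, and the values are a description with no test.

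The rest of the pathway was represented by 48 further genes, of which 47 had a probe and 34 were tested. By genotype 0 of 34 passed in the fit without a block, with the slide or with the replicate number as a block (limma, adjusted p 0.05), where 0.00964% of all features passed without a block. At an unadjusted p under 0.05 in the slide-blocked fit, 1 was higher and 4 were lower in EP2KO, beside 2.49% and 4.85% of all features. Among the 34, Pla2g2f and Ltb4r2 had passed the filter on dim probes only through WT, and Pla2g5 and Pla2r1 only through EP2KO; Pla2g2f is 1 of the 4 lower genes, and the count is no support for a direction. The median log2 difference was -0.01, with 15 genes above 0 and 19 below. Between slides, 10 of the 34 were lower and 9 higher on slide 2, and 15 did not pass, where 18.2% of all features were lower and 25.1% higher. The counts of the single lists given next stand beside the same shares of all features, 43.2% in either direction, and rest on few genes each. Alox8, Gpr31b, Oxgr1, Pla2g4d, Pla2g4e and Pla2g4f were not well above background on any array, and Pla2g2a had no named probe.

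Of the other lipoxygenases 3 of 4 were tested. Aloxe3, an epidermal lipoxygenase, had a log2 difference EP2KO minus WT of -0.63 (slide-blocked SE 0.32), and Alox12b, which acts with it in skin, one of 0.02 (SE 0.17). Alox12e, the neighbour of Alox15, differed by 0.98 on slide 1 and -1.27 on slide 2. Between slides it fell by 2.13 (SE 0.60, limma adjusted p 0.0257), in the direction of Alox15, and was the only gene of these 3 that passed.

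Of the enzymes that process leukotrienes and epoxides, and their transport, 10 of 11 were tested, and 3 fell and 2 rose from slide 1 to slide 2. Dpep1, a dipeptidase that converts leukotriene D4 to E4, had relative signals of 0.232, 0.0355, 0.0621 and 0.0850 in WT 1 to 4 and 0.0125, 0.0126, 0.0438 and 0.0415 in EP2KO 1 to 4. The genotypes overlapped, since WT 2 lay below EP2KO 3 and EP2KO 4. Its log2 difference was -1.81 (slide-blocked SE 0.65, limma adjusted p 0.578), -2.86 on slide 1 and -0.77 on slide 2. Ephx2, soluble epoxide hydrolase, differed by -1.08 (SE 0.48) and Ggt5, a transpeptidase that converts leukotriene C4 to D4, by -0.55 (SE 0.29). Mgst2, a microsomal enzyme that can also make leukotriene C4, fell 7.10-fold between slides, by 2.83 on the log2 scale (SE 0.22, limma adjusted p 0.000172), more than Ltc4s. Mgst2, and Ltb4r2 named further on, lie outside the rule for named genes and were chosen after their values were seen.

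Of the other lipid mediator receptors 5 of 8 were tested. Fpr2, a formyl peptide receptor that also binds lipoxin A4, had relative signals of 7.86, 14.4, 0.442 and 0.302 in WT 1 to 4 and 6.43, 5.64, 0.122 and 0.116 in EP2KO 1 to 4. EP2KO lay below WT on each slide, by -0.82 and -1.62 on the log2 scale, and the difference over all arrays was -1.22 (slide-blocked SE 0.26, limma adjusted p 0.237). Between slides Fpr2 fell 38.4-fold, a log2 difference of -5.26 (SE 0.26, limma adjusted p 5.14e-05), a drop in the direction of Ltb4r1. Cysltr2, the related cysteinyl leukotriene receptor, had a log2 genotype difference of -0.25 (SE 0.16), and Cmklr1, a receptor of chemerin, one of -0.10 (SE 0.19). Ltb4r2, a low-affinity leukotriene B4 receptor next to Ltb4r1 in the gene order with 0 coding genes between, did not pass between slides (log2 difference -0.16, SE 0.29, limma adjusted p 0.696), whereas Ltb4r1 fell by 2.38. The Ltb4r2 probe was dim, with relative signals of 0.00682 to 0.0160, and well above background on 4 WT but 3 EP2KO arrays. So close to background, it may not show a fall of that size. The difference between the neighbours was not tested.

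Of the other phospholipases A2, with the receptor Pla2r1 and related enzymes, 12 of 21 were tested, and 6 rose and 2 fell from slide 1 to slide 2. Pla2g2e, a secreted phospholipase A2, had relative signals of 0.0275, 0.0141, 0.575 and 0.784 in WT 1 to 4 and 0.0407, 0.0453, 1.09 and 0.883 in EP2KO 1 to 4. EP2KO lay above WT on each slide, and the log2 difference was 0.84 (slide-blocked SE 0.25, limma adjusted p 0.444). Between slides it rose 27.9-fold, by 4.80 on the log2 scale (SE 0.25, limma adjusted p 5.68e-05), against the direction of Pla2g4a. Pla2g2f, a further secreted enzyme, had a log2 difference of -0.64 (slide-blocked SE 0.20). Its probe exceeded background clearly on 4 WT but 3 EP2KO arrays and so entered the fit only through WT, the higher genotype. Pla2r1, clear of background on 3 WT and all 4 EP2KO arrays, differed by 0.29 on slide 1 and -2.09 on slide 2, with -0.90 over all arrays (SE 0.49).

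All 4 genes of arachidonate reacylation, the step that returns free arachidonic acid to phospholipids, were tested, and 2 fell between slides. Lpcat2, an acyltransferase that also makes platelet-activating factor in activated macrophages, fell by 2.20 on the log2 scale (SE 0.13, limma adjusted p 8.61e-05). Its genotype difference was -0.39 (slide-blocked SE 0.13, adjusted p 0.545). Lpcat3 and Mboat7, acyltransferases with a preference for polyunsaturated acids, had genotype differences of 0.06 (SE 0.10) and 0.05 (SE 0.16).

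**Figure D5:**
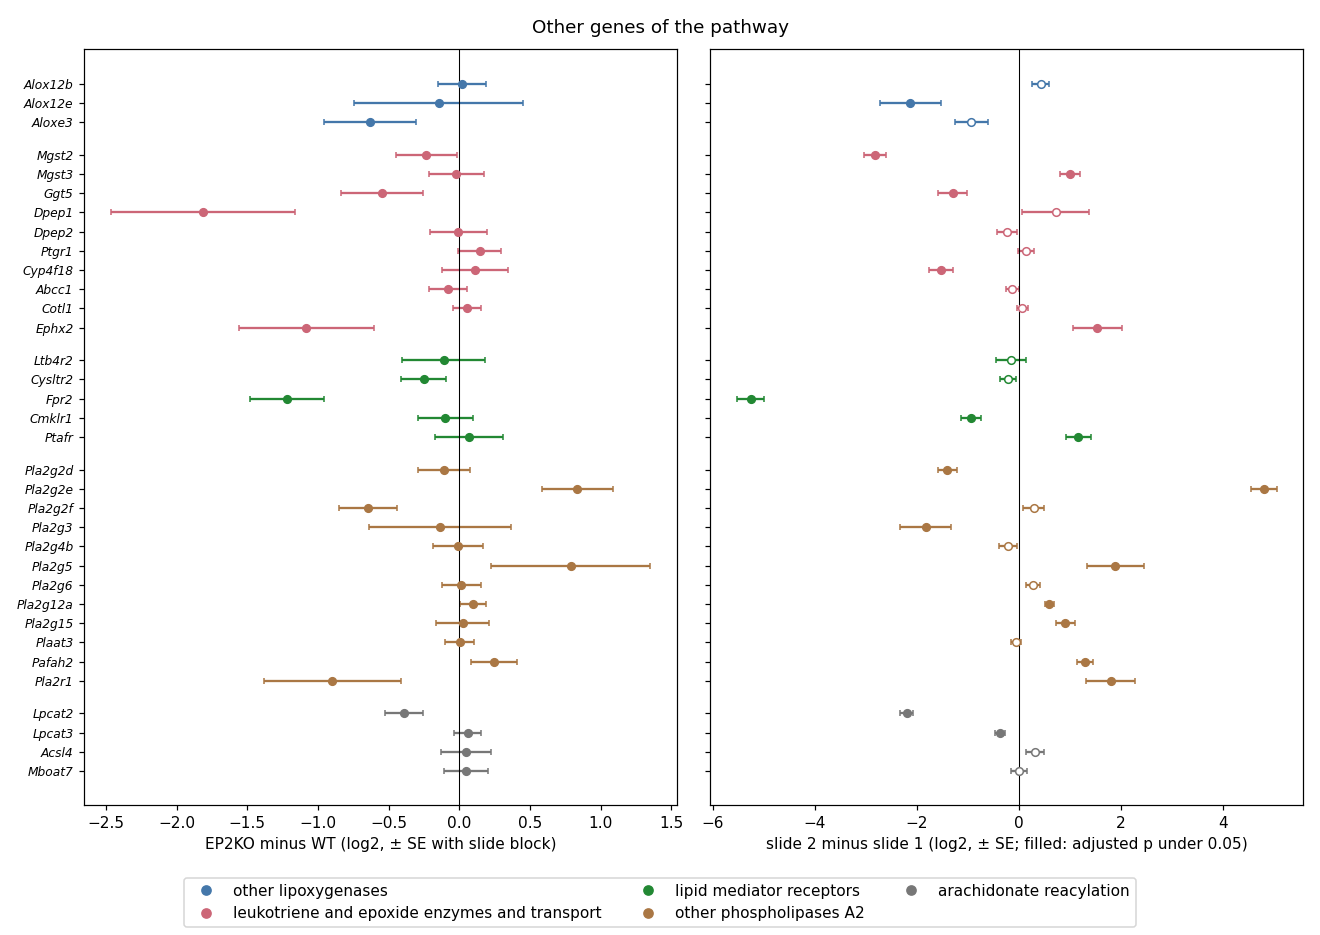
EP2KO minus WT difference (left) and slide 2 minus slide 1 difference (right) of the 34 further pathway genes, on the log2 scale with bars of 1 SE, coloured by list; filled points on the right had a limma adjusted p under 0.05. The x axes differ: the slide differences run from Fpr2 at -5.26 to Pla2g2e at 4.80, the genotype differences from Dpep1 at -1.81 to Pla2g2e at 0.84.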

How the data were processed

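Per the file headers, spot intensity was extracted by Feature Extraction 10.7.1.1 (9.1 in the submitters' processing notes) and deposited background-corrected and unscaled. The authors' series table holds the same intensity values (largest log2 difference 0) and no further unit. Here log2 processed signal was taken, each array's 75th percentile subtracted, control spots (1377 of 44397) and outlier-marked spots dropped, and spots of a probe averaged. Probes were named by RefSeq transcript (GRCm38.p6 table; 27508 of 39429 probes); the array design is mm9, so no coordinates come from it. A probe was kept if well above background on all arrays of 1 genotype, and the brightest stood for its gene, giving 20738 features. Cysltr1, Pla2g7 and Alox12 had 2 probes each.

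Differences were fitted with limma 3.58.1 in R 4.3.3 (lmFit, eBayes, two-sided, Benjamini-Hochberg over all features, adjusted p 0.05). The fits were tried on simulated data whose genotype changes were equal on both slides. That trial does not cover differences that vary between slides, as many do here. Alternatives changed 1 choice at a time, except that arrays were also left out 1 by 1 with the slide as a block. SEs are the fit's. Same-numbered WT and EP2KO arrays correlated in their deviations from genotype means (r 0.74, 0.12, 0.55 and 0.43 for numbers 1 to 4). Such arrays also share a slide, whose effect these deviations keep, so the r values cannot show pairing. With each r over 0.1 the number also served as a block in a further fit, while the first fit had no block. Named genes were the 10 list genes, Ptger2, from each pathway list the 3 smallest unadjusted p in the slide-blocked fit, and for 3 list genes the 3 most correlated genes. Members and lists were chosen with earlier results of these data known. The fit over single probes and those slide-blocked fits were added after seeing the data. Background correction by normexp (offset 50) used the median spot signal.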

Additional observations from a re-analysis of the deposited data

How the results depend on the processing

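No list gene and no further pathway gene passed by genotype under any of the 28 alternatives run (limma, adjusted p 0.05); at an unadjusted p under 0.05, 1 list gene stood without a block and 2 with the slide block. The lowest adjusted p was 0.232 for Alox15 (slide block, without WT 4) and 0.283 for Pla2g7 (slide block, without WT 2), and both, with Cysltr1, kept their direction in 28 of 28; Alox15 ranged from 0.68 to 2.59 and Pla2g7 from 0.41 to 0.71 on the log2 scale. Over all features 2 passed in the fit without a block, 4 with the slide block, 4 with the slide as a random block (correlation 0.579) and 0 with the replicate block, which changed no call of a list or pathway gene. With 1 array left out that count ran from 0 to 4 (4 without WT 4 or EP2KO 1; 0 without WT 1, WT 3, EP2KO 2, EP2KO 3 or EP2KO 4), and with the slide block from 0 (WT 1 or WT 3) to 5 (EP2KO 1) and 7 (WT 2). Differences near 0 changed sign: Alox5 was 0.013 with array weights, whose estimation stopped before converging, and ran from -0.62 to 0.31 with 1 array left out (above 0 without WT 1, WT 2, EP2KO 3 or EP2KO 4). Alox5ap ran from -0.34 to 0.13 (above 0 without WT 1 or WT 2; up to 0.015 with the slide block), Lta4h from -0.11 to 0.25 (below 0 without EP2KO 3, also at -0.046 with the slide block), Ltb4r1 from -1.04 to 0.043 and Ltc4s from -0.66 to 0.029 (above 0 without WT 2), and Pla2g4a from -0.48 to 0.029 (above 0 without EP2KO 4). The list median ran from -0.48 to 0.043. The pathway median was -0.11 with no filter on dim probes, -0.18 with normexp and -0.10 (WT 3) to 0.012 with 1 array left out. Between slides 6 to 8 list genes passed; for the interaction 0 to 2 did, the 2 being Alox5 and Pla2g4a without WT 1. The causes were not tested. Dim probes such as Alox12 lie too close to background for a level.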
